A study of Caenorhabditis elegans with 33 samples.

Results

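The comparison set mxl-2(tm1516) hermaphrodites of Caenorhabditis elegans against N2, the wild type, with both strains fed bacteria that produced double-stranded RNA against pha-4. It was chosen by its libraries, the 3 of mxl-2 and the 3 of N2 on this food, which are 6 of the 33 in the series, and it is described across all genes. The other libraries held the same strains, eat-2(ad465) and the double mutant on empty vector (EV), daf-16 RNAi or pha-4 RNAi. All animals ate HT115(DE3) Escherichia coli, were kept at 16 °C up to the L4 larval stage and at 20 °C from then on, received 5-fluorodeoxyuridine (FUdR) at L4 to block progeny, and were collected whole at adult day 2. Each library came from its own synchronised population of about 3000 animals. The mutant strain carries 1 allele, and feeding RNAi lowers a transcript without deleting the gene. A lower value in whole animals can mean fewer cells of a type or less RNA per cell, which cannot be told apart here.

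MXL-2 is the Max-like partner of MML-1, the Myc/Mondo-related transcription factor of C. elegans, and the pair binds DNA as a heterodimer. In this animal the pair has been studied for its part in lifespan, metabolism and migration. PHA-4 is the FOXA transcription factor that specifies the pharynx in the embryo and is known in adults for a requirement in the long life of animals under dietary restriction. The series as a whole is about Myc-family factors under dietary restriction. The comparison described here asks what the loss of mxl-2 does to the transcriptome when pha-4 is knocked down.

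Sequencing gave 25.4 M to 31.5 M counts a library (M, counts in units of 1e6) for 17907 genes, of which 17354 were tested. Levels are given as CPM, counts divided by the library total in those units, scaled by trimmed-mean (TMM) factors. The libraries did not group by strain. The first principal component of log2 CPM held 68.1% of the variance among the 6 libraries, and 81.4% of it lay within the strains. On it mxl-2 replicates 1 and 2 and N2 replicate 3 took the values 80.1, 92.4 and 53.04, whereas mxl-2 replicate 3 and N2 replicates 1 and 2 took -74.1, -74.9 and -76.5. Pearson's r of log2 CPM across genes was 0.980 between mxl-2 replicate 2 and N2 replicate 3, but 0.919 between mxl-2 replicates 2 and 3. The major sperm protein genes, which encode the cytoskeletal protein of nematode sperm, followed this split: the mean log2 CPM of the 31 genes was -0.75, -1.17 and 4.44 in mxl-2, against 4.49, 4.83 and 1.85 in N2. The targeted gene mxl-2 was low in all 3 libraries labelled mxl-2 and high in all 3 labelled N2, so the strain labels held while much of the transcriptome split another way. The markers of intestine, muscle, neurons, germ line, oocytes and hypodermis were all detected in the 6 libraries, and mean log2 CPM of the 13 intestinal markers was 5.48, 5.85 and 6.95 in mxl-2, against 7.39, 6.88 and 5.67 in N2.

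**Figure D1:**
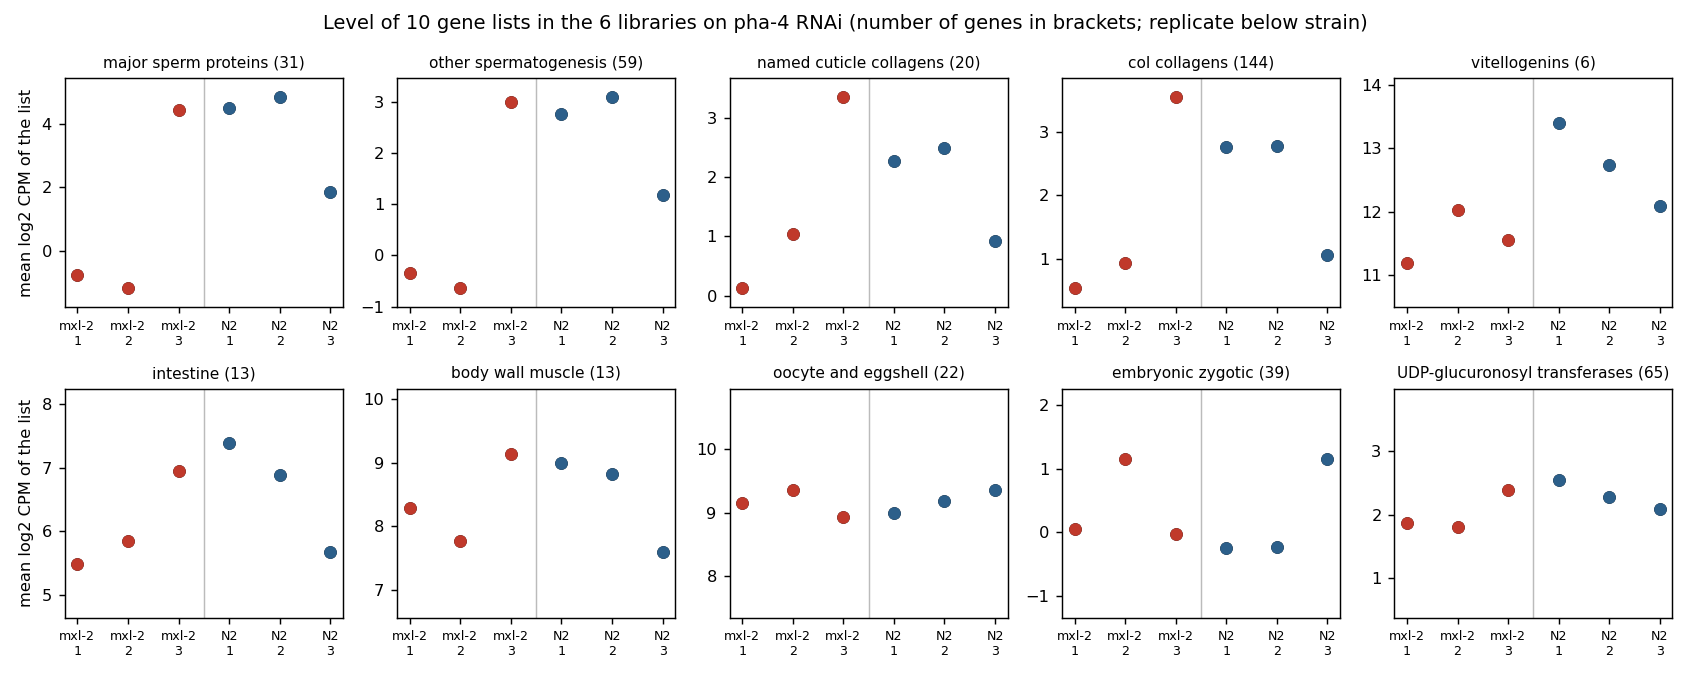
Mean log2 CPM of 10 gene lists in each of the 6 libraries on pha-4 RNAi, with mxl-2 (red) left of N2 (blue) and the number of genes of each list in brackets. Sperm, collagen, intestinal and muscle lists were low in mxl-2 replicates 1 and 2 and in N2 replicate 3, whereas oocyte markers lay between 8.94 and 9.36 in all 6.

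Loss of mxl-2 left 2 genes past the threshold of adjusted p under 0.05 on pha-4 RNAi, and both fell. They are 0.0115% of the genes tested with edgeR's quasi-likelihood test and Benjamini-Hochberg adjustment. Before adjustment, 554 genes (3.19%) had a p under 0.05, of which 237 (1.37%) were higher and 317 (1.83%) lower in mxl-2. The CPM of the strains did not overlap for 599 genes (3.45%) that were higher and 443 (2.55%) that were lower in mxl-2. The median log2 fold change of all genes tested was 0.03. DESeq2 called 19 genes (0.109%), and edgeR with the sperm transcript level as a covariate called 22 (0.127%). Without N2 replicate 3 the edgeR count was 10, and without mxl-2 replicate 1, 2 or 3 it was 1, 4 or 3. Without N2 replicate 1 or 2 it was 1 or 3.

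The mutated gene itself fell. It lies on chromosome III from 186949 to 188131 on the minus strand (WBcel235). Its counts were 95, 90 and 79 in the 3 mxl-2 libraries, against 1491, 1639 and 2130 in the N2 libraries, or 3.56, 3.38 and 3.52 CPM in mxl-2, against 57.5, 59.5 and 67.1 CPM in N2. No mxl-2 library came near the lowest N2 library. The log2 fold change was -4.14 ± 0.40 (SE), with an edgeR adjusted p of 2.82e-06, and N2 carried 17.6 times as much. The deposited counts are per gene and do not show which part of the transcript remained. Among the alternatives run the call was lost only when a replicate block was fitted to these 6 libraries alone, at an adjusted p of 0.579 and an unmoved log2 fold change of -4.14.

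F23F12.12 was the other gene that fell. It is a protein-coding gene on the plus strand of chromosome III, from 6508132 to 6509499, and its function is not given in the annotation used here. Its counts were 97, 172 and 78 in mxl-2, against 1340, 1368 and 994 in N2, or 3.63, 6.46 and 3.47 CPM in mxl-2, against 51.6, 49.6 and 31.3 CPM in N2, and the highest mxl-2 library lay well under the lowest N2 library. The log2 fold change was -3.29 ± 0.52 (SE), at an adjusted p of 0.0135. The gene was as low in mxl-2 on the other foods, with 3.24, 2.06 and 2.14 CPM in mxl-2 and 97.7, 61.8 and 70.4 CPM in N2 on EV, and 0.355, 3.04 and 0.321 CPM in mxl-2 and 25.1, 25.2 and 32.2 CPM in N2 on daf-16 RNAi. In the double mutant it had 0.984 to 1.59 CPM on pha-4 RNAi, against 59.5 to 103 CPM in eat-2. Exons of acr-5, a nicotinic acetylcholine receptor subunit gene on the minus strand, cover 5.66% of its exon length, and acr-5 had only 28, 30 and 20 counts in mxl-2 and 13, 17 and 26 in N2. The call was lost without mxl-2 replicate 1 (adjusted p 0.311), mxl-2 replicate 3 (0.114) or N2 replicate 1 (0.0732), and in fits of these 6 libraries without (0.552) or with (1) a replicate block or of the 18 libraries of both strains (0.399), while the log2 fold change stayed between -3.62 and -3.13 with any 1 library left out.

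**Figure D2:**
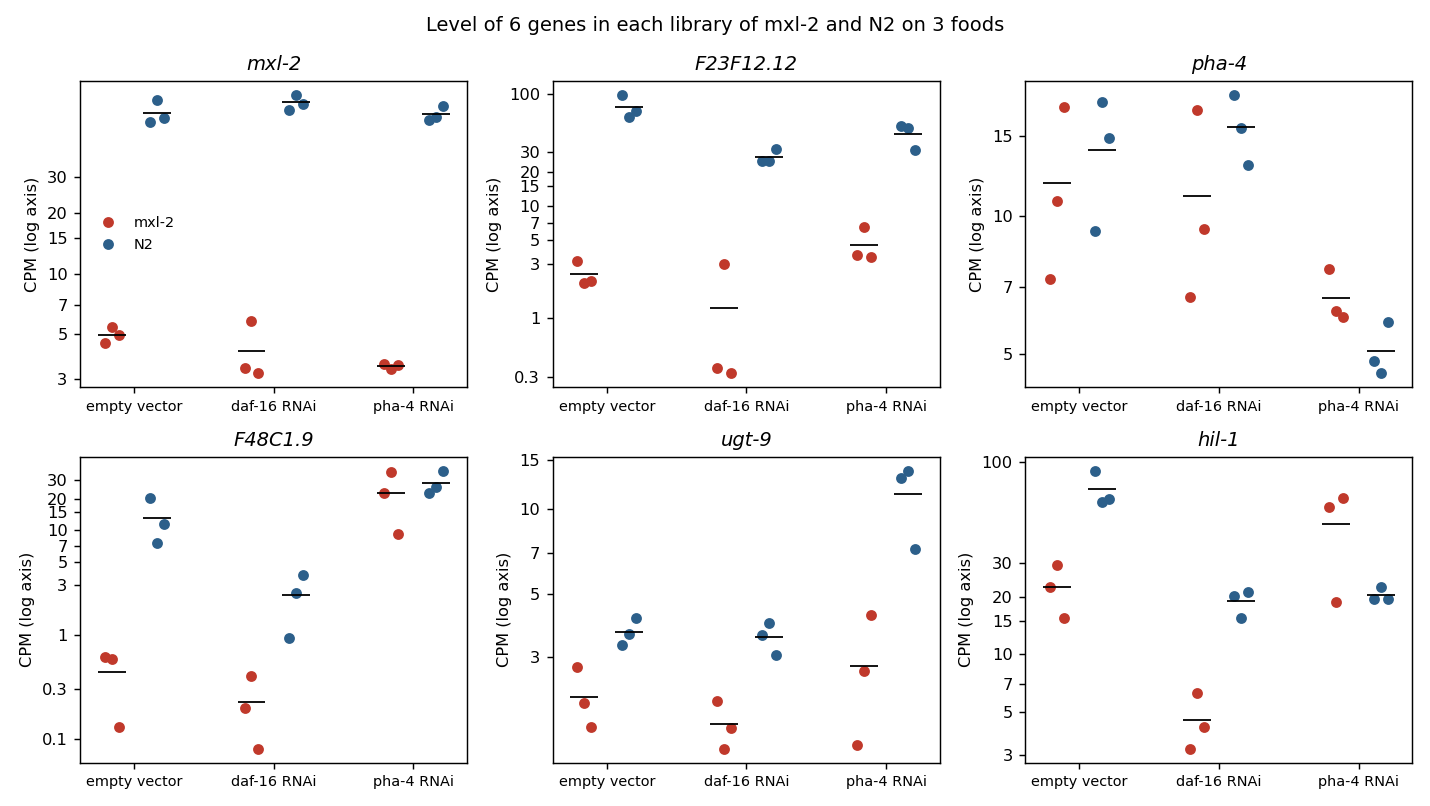
CPM (log axis) of 6 genes in every library of mxl-2 (red) and N2 (blue) on 3 foods; black lines are the means of 3 libraries. The strains do not overlap for mxl-2, F23F12.12 and ugt-9 on any of the foods, the means of pha-4 are lowest on pha-4 RNAi, and F48C1.9 and hil-1 separate the strains on EV but overlap on pha-4 RNAi.

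The gene targeted by the food, pha-4, had a lower mean on pha-4 RNAi than on EV in both strains. Its level was 7.68, 6.2004 and 6.01 CPM in mxl-2, against 4.82, 4.53 and 5.86 CPM in N2 on pha-4 RNAi. On EV it was 7.31, 10.8 and 17.4 CPM in mxl-2, against 9.29, 17.8 and 14.9 CPM in N2, so that 1 library, mxl-2 replicate 1 on EV, lay within the range of the pha-4 RNAi libraries. The log2 fold change between the strains on pha-4 RNAi was 0.39 ± 0.37 (SE), which did not pass (adjusted p 1), although the CPM of the 3 mxl-2 libraries were all above those of N2. Knockdown left a mean of 6.63 ± 0.914 CPM in mxl-2 and 5.07 ± 0.697 CPM in N2 (SD, n = 3 each). The FOXO gene daf-16 had 200.05 ± 49.6 CPM in mxl-2 and 159 ± 7.12 CPM in N2. The level of eat-2, a nicotinic receptor subunit of pharyngeal muscle, was near 1 CPM or under it: 0.487, 0.601 and 1.07 CPM in mxl-2 and 0.848, 0.726 and 0.504 CPM in N2.

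Of the 7 genes of the Myc-family network, mxl-2 alone was called. Its partner mml-1 had 43.8, 39.01 and 53.3 CPM in mxl-2, against 48.7, 49.5 and 37.4 CPM in N2, and the strains overlapped. The log2 fold change of mml-1 was 0.00 ± 0.27 (SE, adjusted p 1). The Max homolog mxl-1 had 49.9 ± 5.79 CPM in mxl-2 and 57.5 ± 2.01 CPM in N2, and the Mad-like gene mdl-1 78.6 ± 20.8 CPM in mxl-2 and 65.7 ± 5.35 CPM in N2 (SD, n = 3 each). The Max-like mxl-3 had 71.1 ± 14.7 CPM in mxl-2 and 58.4 ± 5.72 CPM in N2, the TFEB homolog hlh-30 106 ± 25.9 CPM in mxl-2 and 81.6 ± 11.2 CPM in N2, and the SREBP homolog sbp-1 68.9 ± 23.2 CPM in mxl-2 and 61.7 ± 18.3 CPM in N2. None of these 5 passed (adjusted p 1 each), and their log2 fold changes ran from -0.20 to 0.38.

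Next to the 2 calls stood genes of detoxification, chosen for description after their values were seen. ugt-9, a UDP-glucuronosyl transferase, had 1.46, 2.67 and 4.23 CPM in mxl-2, against 12.9, 13.7 and 7.24 CPM in N2, and the strains did not overlap. Its log2 fold change of -2.02 ± 0.37 (SE) missed the threshold at an adjusted p of 0.0588, and over 17 other settings the adjusted p ran from 1.58e-05 to 1, passing in 6. ugt-25, of the same family, had 6.22, 8.15 and 6.01 CPM in mxl-2, against 19.5, 13.4 and 28.1 CPM in N2 (log2 fold change -1.58 ± 0.33, adjusted p 0.190). The carboxylesterase gene cest-34 was higher in mxl-2, with 6.89, 2.48 and 10.8 CPM in mxl-2, against 1.39, 1.45 and 2.17 CPM in N2 (log2 fold change 2.005 ± 0.42, adjusted p 0.190). The strains did not overlap for ugt-25 or cest-34 either, and the 2 genes passed in 2 and 3 of the other settings.

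Other genes of small p, also named after their values were seen, lay in both directions. F54B8.4 had 30.9, 13.9 and 43.7 CPM in mxl-2, against 4.09, 3.74 and 8.63 CPM in N2, without overlap. Its log2 fold change was 2.42 ± 0.47 (SE, adjusted p 0.118), and over the 17 other settings the adjusted p ran from 0.000277 to 1, passing in 7. C08F11.7 was lowly expressed and higher in mxl-2, at 2.47, 1.28 and 1.60 CPM in mxl-2, against 0.308, 0.435 and 0.819 CPM in N2 (adjusted p 0.190). R07E3.4 was lower, at 3.41, 4.77 and 3.61 CPM in mxl-2, against 7.86, 9.94 and 16.9 CPM in N2 (adjusted p 0.329), without overlap. F20E11.17 had the widest spread of these: 103, 4.06 and 5.12 CPM in mxl-2, against 0.193, 0.181 and 2.74 CPM in N2, so that 1 mxl-2 library held most of the difference, and its log2 fold change ran from 2.13 to 7.61 with 1 library left out. psf-2, which encodes a subunit of the GINS complex of DNA replication, was lower in every mxl-2 library at 28.99, 32.02 and 27.6 CPM in mxl-2, against 54.3, 53.6 and 32.7 CPM in N2 (log2 fold change -0.67 ± 0.17, adjusted p 0.616). Exons of F31C3.6 on the other strand cover 10.6% of psf-2.

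**Figure D3:**
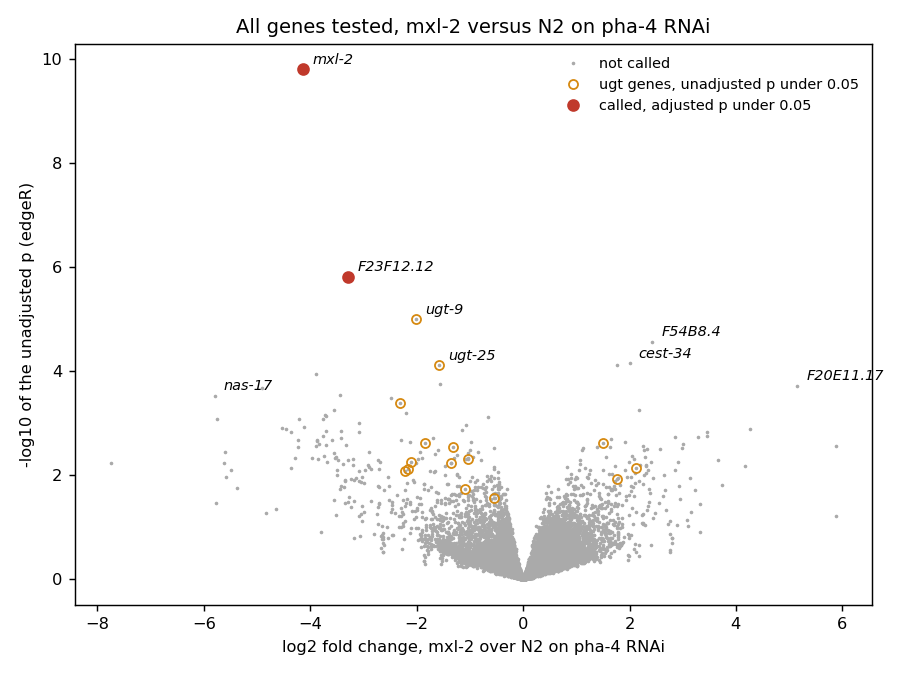
Log2 fold change of mxl-2 over N2 on pha-4 RNAi (x axis) against -log10 of the unadjusted edgeR p (y axis) for the 17354 genes tested. The 2 called genes (red) both lie on the lower side; of the ugt genes at an unadjusted p under 0.05 (open circles), 12 lie left of 0 and 3 right.

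Among the enzymes that modify foreign compounds, the UDP-glucuronosyl transferases, which attach sugars to lipophilic molecules, were lower more often than higher. Of 65 ugt genes none was called, 12 were lower and 3 higher at an unadjusted p under 0.05, against 1.83% and 1.37% of all genes tested, and the median log2 fold change of the list was -0.26. Of the 12, 11 stayed under that level without N2 replicate 3, the library that lay with mxl-2 replicates 1 and 2 on the first principal component. Leaving this library out therefore cannot show that these genes follow strain. Without mxl-2 replicate 3 the counts were 17 lower and 1 higher, where 1905 of all genes were at that level in either direction. The mean log2 CPM of the list overlapped between the strains, at 1.87, 1.80 and 2.38 in mxl-2, against 2.55, 2.28 and 2.09 in N2. On the other foods the median of the list was 0.05 on EV and 0.54 on daf-16 RNAi. Of the 15 genes 9 lie on chromosome V, and ugt-8, ugt-9, ugt-12, ugt-13 and ugt-14 lie together between 4887165 and 4911399, so their reads may be shared among near copies. ugt-41 had 13.2, 8.08 and 11.8 CPM in mxl-2, against 71.8, 68.1 and 25.7 CPM in N2, and ugt-63 2.58, 5.67 and 5.61 CPM in mxl-2, against 13.6, 17.7 and 18.7 CPM in N2; neither overlapped between the strains. On the higher side ugt-29 had 75.5, 32.1 and 123 CPM in mxl-2, against 23.97, 14.8 and 29.4 CPM in N2 and ugt-31 90.7, 18.8 and 134 CPM in mxl-2, against 18.8, 16.4 and 20.9 CPM in N2. The strains overlapped for ugt-31 in 1 mxl-2 library.

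Other families of this kind held smaller shares of genes at an unadjusted p under 0.05 than the 4.62% higher and 18.5% lower of the ugt genes. Of 72 cytochrome P450 genes 2 were higher and 4 lower (2.78% and 5.56%, against 1.37% and 1.83% of all genes). Of 46 glutathione transferase genes 1 was higher and 3 lower (2.17% and 6.52%), and of 5 flavin monooxygenase genes none was at that level. cyp-14A5 was higher at 125, 49.3 and 152 CPM in mxl-2, against 21.4, 18.2 and 46.99 CPM in N2 without overlap, and cyp-14A2 lower at 0.150, 0.489 and 0.890 CPM in mxl-2, against 9.60, 6.53 and 0.409 CPM in N2, where N2 replicate 3 lay with the mxl-2 libraries. The P-glycoprotein transporters pgp-5 and pgp-6, neighbours on the X chromosome, were higher, with 60.7, 11.72 and 88.2 CPM in mxl-2, against 17.7, 8.996 and 12.9 CPM in N2 for pgp-5 and 21.5, 11.9 and 34.3 CPM in mxl-2, against 3.20, 1.96 and 11.4 CPM in N2 for pgp-6. For both genes the lowest mxl-2 library lay close to or within the range of N2. The xenobiotic response genes cyp-35A2 (40.0 ± 30.1 CPM in mxl-2 and 49.3 ± 34.6 CPM in N2), gst-4 (26.6 ± 11.4 CPM in mxl-2 and 24.4 ± 7.41 CPM in N2) and fmo-2 (46.4 ± 34.3 CPM in mxl-2 and 88.3 ± 14.5 CPM in N2, SD, n = 3 each) overlapped between the strains.

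Targets of DAF-16, the insulin pathway's FOXO factor, leaned higher in mxl-2. Of 12 targets, 11 lay above 0, against 53.4% of all genes tested, none was called, and 3 were higher at an unadjusted p under 0.05, against 1.37%; the median log2 fold change was 0.55. Those 3 were the linker histone hil-1, the metallothionein mtl-1 and the small heat shock protein hsp-12.3. hil-1 had 58.6, 18.7 and 65.2 CPM in mxl-2, against 19.3, 22.5 and 19.3 CPM in N2, mtl-1 105, 36.2 and 161 CPM in mxl-2, against 13.8, 39.4 and 38.05 CPM in N2, and hsp-12.3 25.7, 6.39 and 60.7 CPM in mxl-2, against 8.98, 9.21 and 8.76 CPM in N2. In each of the 3 genes mxl-2 replicates 1 and 3 were high and replicate 2 did not exceed the highest N2 library. Without mxl-2 replicate 3 the median was 0.22 and none of the targets was at that level. The superoxide dismutase sod-3 overlapped, at 7.27, 2.07 and 16.3 CPM in mxl-2, against 7.52, 8.34 and 1.80 CPM in N2. On EV the list went the other way, with a median of -0.83, and on daf-16 RNAi it was -1.35.

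The pathways upstream and alongside showed no call. Of 10 insulin pathway genes none reached an unadjusted p under 0.05, and the receptor daf-2 had 159.8 ± 60.1 CPM in mxl-2 and 154 ± 13.02 CPM in N2. Of 34 insulin-like peptide genes 1, ins-31, was lower at that level (2.94%, against 1.83% of all genes). This gene was among those high in N2 replicate 3 alone, and ins-7 had 9.86 ± 6.72 CPM in mxl-2 and 9.61 ± 7.48 CPM in N2. None of the 13 TOR and AMPK genes reached that level, with the AMPK catalytic subunit aak-2 at 64.1 ± 19.96 CPM in mxl-2 and 59.6 ± 11.4 CPM in N2 (SD, n = 3 each). Of 10 small heat shock protein genes only hsp-12.3 did (10%, against 1.37% of all genes higher), and hsp-16.2 had 27.6 ± 11.3 CPM in mxl-2 and 46.6 ± 18.02 CPM in N2. The endoplasmic reticulum chaperone hsp-4 had 372 ± 25.03 CPM in mxl-2 and 471 ± 69.0 CPM in N2 and the mitochondrial superoxide dismutase sod-2 111 ± 11.3 CPM in mxl-2 and 118 ± 12.08 CPM in N2. Of 10 metal and iron genes mtl-1 was higher and mtl-2 lower at that level (10% each, against 1.37% and 1.83% of all genes). mtl-2 had 41.6, 129 and 96.7 CPM in mxl-2, against 157, 167 and 118 CPM in N2, and the ferritin ftn-1 had 29.9 ± 23.3 CPM in mxl-2 and 17.6 ± 8.13 CPM in N2. The osmotic stress enzyme gpdh-1 had 3.47 ± 1.52 CPM in mxl-2 and 5.25 ± 4.55 CPM in N2.

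Immune effectors lay in both directions, and many of the lower ones rested on N2 replicate 3. That library held 93 genes of at least 1 CPM at more than 5 times the highest of the other 5 libraries, of which 86 were among the 554, whereas mxl-2 replicate 3 held 21 such genes, mxl-2 replicate 1 held 5, and the other 3 libraries none. The median over these 93 genes was 3.37 CPM in N2 replicate 3 and 0.0375 to 0.263 CPM in the other 5. They included 20 C-type lectins, 3 astacin proteases and 4 fip or fipr peptides. Without this library, 209 of the 317 lower genes and 192 of the 237 higher genes kept an unadjusted p under 0.05, 35 lower genes took the other sign and 16 genes were not tested. What set this library apart was not tested.

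**Figure D4:**
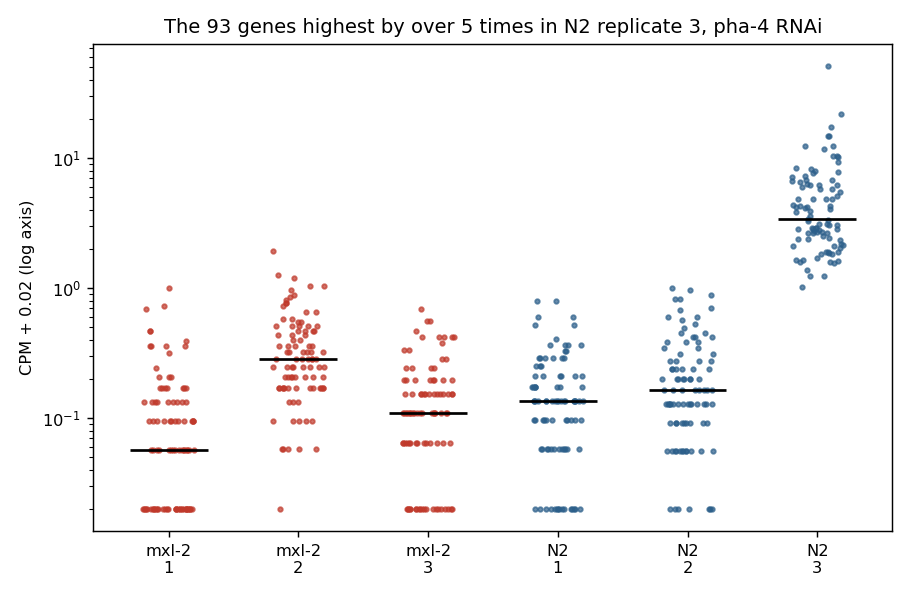
CPM + 0.02 (log axis) of the 93 genes that were highest by more than 5 times in N2 replicate 3, in the 6 libraries on pha-4 RNAi, with mxl-2 (red) left of N2 (blue); each point is a gene and black lines are medians. The median is 3.37 CPM in N2 replicate 3 and 0.0375 to 0.263 CPM in the other libraries.

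C-type lectins, secreted sugar-binding proteins often induced by pathogens, had 5 higher and 25 lower genes of 175 at an unadjusted p under 0.05, or 2.86% and 14.3% against 1.37% and 1.83% of all genes. Of the 25 lower ones 4 remained without N2 replicate 3. clec-197 had 0.0749, 0.789 and 0.445 CPM in mxl-2, against 0.385, 0.798 and 21.8 CPM in N2, and clec-219 0.0749, 0.338 and 0.178 CPM in mxl-2, against 0.116, 0.653 and 10.4 CPM in N2: in both, the third N2 library alone was high. clec-52 was higher, at 206, 27.02 and 121 CPM in mxl-2, against 17.2, 12.8 and 14.1 CPM in N2, and the strains did not overlap. Of 76 antimicrobial peptide genes 3 were higher and 10 lower (3.95% and 13.2%, beside the same 1.37% and 1.83%), and 5 of the 10 remained without that library; fipr-17, with 0.112, 0.338 and 0.178 CPM in mxl-2, against 0.193, 0.181 and 6.52 CPM in N2, took the other sign, with a log2 fold change of 0.17. The peptide gene nlp-29 had 64.7 ± 11.5 CPM in mxl-2 and 56.7 ± 18.3 CPM in N2. The lysozyme lys-7 was higher in 2 of the 3 mxl-2 libraries than in any of N2, at 2342, 1639.9 and 1124 CPM in mxl-2, against 412, 352 and 1456 CPM in N2, and without N2 replicate 3 its log2 fold change of 2.16 passed at an adjusted p of 0.0447. lys-1 had 469 ± 185 CPM in mxl-2 and 728 ± 347 CPM in N2, clec-60 18.7 ± 11.6 CPM in mxl-2 and 11.5 ± 5.83 CPM in N2 and pals-22, a repressor of the intracellular pathogen response, 4.46 ± 0.688 CPM in mxl-2 and 3.81 ± 0.576 CPM in N2 (SD, n = 3 each).

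Some astacin proteases and a pair of low genes had the same shape. Of 33 astacin metalloprotease genes 4 were lower at an unadjusted p under 0.05, against 1.83% of all genes, and none was higher. None of the 4 remained without N2 replicate 3. The list as a whole leaned higher: 24 of the 33 lay above 0, against 53.4% of all genes, with a median log2 fold change of 0.25. nas-17 had 0.0375, 0.0376 and 0 CPM in mxl-2, against 0.270, 0 and 4.79 CPM in N2, and nas-24 0.337, 0.188 and 0.134 CPM in mxl-2, against 0.347, 0.798 and 7.65 CPM in N2, so that 1 library set both differences; the moulting protease nas-37 had 32.4 ± 16.8 CPM in mxl-2 and 29.2 ± 13.9 CPM in N2. C05B5.11 was lowly expressed and lower in mxl-2 at 0.0749, 0.113 and 0.134 CPM in mxl-2, against 0.308, 0.290 and 4.28 CPM in N2; all 3 mxl-2 libraries lay below all 3 of N2, and the mxl-2 libraries held 2, 3 and 3 counts. C16C8.7 had 0, 2 and 0 counts in mxl-2, against 4, 4 and 77 in N2.

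The lysosome and the digestive proteases leaned lower. All 20 subunit genes of the V-ATPase, the proton pump that acidifies lysosomes, lay below 0, against 46.6% of all genes, none of them at an unadjusted p under 0.05, with a median log2 fold change of -0.33. Their mean log2 CPM followed the split of the libraries, at 6.99, 7.13 and 7.77 in mxl-2, against 8.08, 7.77 and 7.09 in N2. Without N2 replicate 3 or mxl-2 replicate 3, 6 or 8 of them were lower at that level. In those fits 1557 or 1905 of all genes were at that level in either direction. The intestinal subunit vha-6 had 78.7, 99.2 and 295 CPM in mxl-2, against 460.1, 287 and 95.1 CPM in N2. Of 25 cathepsin and aspartyl protease genes 4 were lower (cpr-5, cpr-8, asp-8 and asp-12, 16%, against 1.83% of all genes) and none higher. All 4 stayed so without N2 replicate 3, where 7 of the list were lower and 3 higher. That library lay with mxl-2 replicates 1 and 2 on the first principal component, so leaving it out cannot show that these genes follow strain. The mean log2 CPM of the list was 5.49, 5.98 and 6.36 in mxl-2, against 6.68, 6.16 and 5.70 in N2. cpr-5 had 31.95, 78.4 and 95.4 CPM in mxl-2, against 154, 182 and 78.0 CPM in N2, and the cathepsin L gene cpl-1 1365 ± 468 CPM in mxl-2 and 2213 ± 1183 CPM in N2. Of 27 autophagy genes none reached that level, with lgg-1, the Atg8 homolog, at 696 ± 177 CPM in mxl-2 and 676 ± 85.9 CPM in N2. The lysosomal lipase lipl-4 had 3.66 ± 1.499 CPM in mxl-2 and 1.79 ± 0.212 CPM in N2 (SD, n = 3 each).

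In lipid metabolism single genes stood out. fat-7, a stearoyl-CoA desaturase, was lower in mxl-2 in most libraries, at 2.47, 43.8 and 15.7 CPM in mxl-2, against 113, 96.3 and 27.3 CPM in N2 (log2 fold change -1.93 ± 0.82, adjusted p 1), with an overlap between mxl-2 replicate 2 and N2 replicate 3; its paralog fat-6 had 563 ± 264 CPM in mxl-2 and 651 ± 184 CPM in N2. The acyl-CoA synthetase acs-2 had 766, 411 and 1432 CPM in mxl-2, against 361, 454 and 238 CPM in N2. Of 60 fatty acid oxidation genes 2 were higher and 3 lower at an unadjusted p under 0.05 (3.33% and 5%, against 1.37% and 1.83% of all genes). The fatty acid and retinol binding gene far-3 was lower without overlap, at 117, 135 and 89.6 CPM in mxl-2, against 279, 234 and 247 CPM in N2 (log2 fold change -1.15 ± 0.32, adjusted p 0.722), and exons of far-5 cover 7.43% of it; far-1 had 1487 ± 384 CPM in mxl-2 and 1073 ± 113 CPM in N2. Of 13 intestinal genes 11 lay below 0, against 46.6% of all genes. Of these, mtl-2 and the acid phosphatase pho-1 were at an unadjusted p under 0.05 (15.4% of the list, against 1.83% of all genes). The mean log2 CPM of the list followed the split of the libraries, with mxl-2 replicate 3 (6.95) above N2 replicates 2 (6.88) and 3 (5.67). pho-1 had 0.899, 4.096 and 7.92 CPM in mxl-2, against 22.5, 15.2 and 3.43 CPM in N2, where N2 replicate 3 lay within the mxl-2 range. The intestinal GATA factor elt-2 had 21.4 ± 7.37 CPM in mxl-2 and 16.8 ± 4.23 CPM in N2 and the gut esterase ges-1 37.4 ± 27.8 CPM in mxl-2 and 53.3 ± 35.5 CPM in N2 (SD, n = 3 each).

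Central metabolism and mitochondria showed small shifts. Of 38 glycolysis and TCA genes none reached an unadjusted p under 0.05, and the gluconeogenic enzyme pck-1 had 168 ± 52.7 CPM in mxl-2 and 225 ± 81.1 CPM in N2. None of 14 methionine cycle genes did, with sams-1 at 143 ± 108 CPM in mxl-2 and 138 ± 69.1 CPM in N2. Of 44 respiratory chain genes 1, cox-17, was lower (2.27%, against 1.83% of all genes), and mev-1 had 118 ± 39.2 CPM in mxl-2 and 128 ± 30.2 CPM in N2. Of 70 mitochondrial ribosomal protein genes 59 lay below 0 and 5 (7.14%) were lower at an unadjusted p under 0.05, against 46.6% and 1.83% of all genes. Without N2 replicate 3, 14 were lower at that level, these 5 among them, and without mxl-2 replicate 3, 3 were. In those fits 1557 and 1905 of all genes were at that level in either direction. mrpl-39 had 40.0, 44.0 and 41.8 CPM in mxl-2, against 55.9, 62.2 and 44.0 CPM in N2, all mxl-2 libraries but the second being below all of N2. The median of this list, -0.18, was close to its -0.14 on EV and -0.10 on daf-16 RNAi. mrps-5 had 105 ± 2.51 CPM in mxl-2 and 109 ± 2.35 CPM in N2 (SD, n = 3 each).

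The machinery of protein synthesis and turnover, which Myc factors are known to drive in mammals, held no call. Of 79 cytosolic ribosomal protein genes 60 lay above 0, against 53.4% of all genes, none at an unadjusted p under 0.05, with a median log2 fold change of 0.15, and rpl-5 had 2534 ± 686 CPM in mxl-2 and 2055 ± 172 CPM in N2. The mean log2 CPM of the list was 9.94, 9.88 and 10.51 in mxl-2, against 10.09, 10.10 and 9.85 in N2. Without mxl-2 replicate 3 its median log2 fold change was -0.05. Of 23 ribosome biogenesis genes 1, rpoa-12, was lower (4.35%, against 1.83% of all genes), and the fibrillarin gene fib-1 had 656 ± 45.01 CPM in mxl-2 and 663 ± 116 CPM in N2. Of 33 tRNA synthetase genes 1 was higher and 1 lower (3.03% each, against 1.37% and 1.83% of all genes), and lars-1 had 382 ± 85.0 CPM in mxl-2 and 326 ± 28.5 CPM in N2. None of 33 proteasome genes reached that level, and pbs-5 had 185 ± 28.5 CPM in mxl-2 and 216 ± 35.7 CPM in N2. Of 39 histone genes 1 was higher and 1 lower (2.56% each, against 1.37% and 1.83% of all genes), and the linker histone his-24 had 128 ± 45.02 CPM in mxl-2 and 89.3 ± 53.2 CPM in N2 (SD, n = 3 each).

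Sperm transcripts followed the split of the libraries, whereas the oocyte and germ line lists stayed within 8.94 to 9.36 and 7.20 to 7.66 mean log2 CPM in all 6. Of the 31 major sperm protein genes 29 lay below 0 (median -1.39), and none reached an unadjusted p under 0.05. Without mxl-2 replicate 3, 30 of them were lower at that level, with a median of -5.51, and without N2 replicate 3, none was. In those fits 1905 and 1557 of all genes were at that level in either direction. msp-142 had 1.199, 0.789 and 45.9 CPM in mxl-2, against 49.3, 63.2 and 6.93 CPM in N2, and the sperm phosphatase gsp-3 1.12, 0.639 and 36.6 CPM in mxl-2, against 28.02, 34.4 and 6.05 CPM in N2. Copies of msp genes are nearly identical, so the share of each copy is uncertain. Of 22 oocyte and eggshell genes and 20 germ line genes none reached that level; the yolk receptor rme-2 had 745 ± 48.3 CPM in mxl-2 and 823 ± 88.6 CPM in N2 and the P granule helicase glh-1 451 ± 70.2 CPM in mxl-2 and 394 ± 38.7 CPM in N2. ceh-18 of the gonadal sheath had 9.82 ± 3.19 CPM in mxl-2 and 8.65 ± 1.79 CPM in N2, and pes-10, an early zygotic gene of the embryo, 2.36 ± 0.535 CPM in mxl-2 and 2.35 ± 1.24 CPM in N2 (SD, n = 3 each). Of 39 zygotic genes none was at an unadjusted p under 0.05 over all 6 libraries. Without N2 replicate 3, 10 were higher in mxl-2, where 1557 of all genes were at that level in either direction.

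Vitellogenins, the yolk proteins made in the intestine, divided into a pair of groups. vit-2, vit-5 and vit-6, with log2 fold changes near 0, overlapped fully: vit-2 had 31463 ± 12093 CPM in mxl-2 and 26358 ± 6763 CPM in N2 and vit-6 26838 ± 6893 CPM in mxl-2 and 26086 ± 6971 CPM in N2 (SD, n = 3 each). vit-1, vit-3 and vit-4 were lower in mxl-2. vit-3 had 161, 872 and 742 CPM in mxl-2, against 4747, 3081 and 1088 CPM in N2, and vit-4 159.9, 984 and 487 CPM in mxl-2, against 3057, 1988 and 1138 CPM in N2, and neither overlapped. vit-1 had 221, 613 and 519.8 CPM in mxl-2, against 5185, 3340.5 and 589 CPM in N2, where 1 mxl-2 library lay above the lowest N2 library. The log2 fold changes were -2.75 ± 1.37 for vit-1, -2.33 ± 1.18 for vit-3 and -1.92 ± 1.27 for vit-4 (SE), none passing (adjusted p 1 each). On EV the 3 genes were higher in mxl-2, with log2 fold changes of 2.43, 1.71 and 2.26. Reads of near-identical vitellogenin genes may be split among copies.

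Cuticle and tissue genes varied chiefly between libraries. Of 144 col collagen genes 3 were higher and 3 lower at an unadjusted p under 0.05 (2.08% each, against 1.37% and 1.83% of all genes). Without mxl-2 replicate 3 the counts were 4 and 50. col-74 had 0.300, 1.28 and 0 CPM in mxl-2, against 8.21, 9.43 and 1.39 CPM in N2, and col-165 0.674, 0.639 and 0.401 CPM in mxl-2, against 6.63, 9.29 and 0.409 CPM in N2. Both were far lower in mxl-2 on EV too, with 0.438, 2.81 and 0.0872 CPM in mxl-2 and 59.9, 66.9 and 62.6 CPM in N2 for col-74. The adult collagen col-19 had 189.6, 315 and 2189.9 CPM in mxl-2, against 2539, 2089 and 415 CPM in N2, and the strains overlapped. rol-6 had 2.79 ± 4.22 CPM in mxl-2 and 1.31 ± 0.567 CPM in N2, dpy-7 2.41 ± 0.931 CPM in mxl-2 and 4.34 ± 1.74 CPM in N2 and the moulting gene mlt-10 7.60 ± 0.252 CPM in mxl-2 and 6.01 ± 1.303 CPM in N2. Without mxl-2 replicate 3, 7 of 13 body wall muscle genes and 8 of 13 intestinal genes were lower at that level, against none and 2 over all 6 libraries. Without that library 1905 of all genes were at that level in either direction, against 554 over all 6. In muscle, unc-54 had 1016 ± 359.9 CPM in mxl-2 and 855 ± 285 CPM in N2 and the pharyngeal myosin myo-2 63.97 ± 40.5 CPM in mxl-2 and 62.8 ± 34.5 CPM in N2. None of 16 pharynx genes and 11 abu genes reached an unadjusted p under 0.05, and abu-14 had 5.25 ± 5.55 CPM in mxl-2 and 2.92 ± 1.52 CPM in N2. The neuronal gene unc-119 had 10.9 ± 2.01 CPM in mxl-2 and 12.5 ± 0.924 CPM in N2 and the hypodermal factor elt-3 18.6 ± 7.32 CPM in mxl-2 and 14.4 ± 3.93 CPM in N2 (SD, n = 3 each).

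Regulators and the RNA interference machinery were close between the strains. None of 34 RNA interference genes reached an unadjusted p under 0.05; the Argonaute rde-1 had 74.5 ± 15.8 CPM in mxl-2 and 71.8 ± 0.973 CPM in N2 and the double-stranded RNA importer sid-1 55.3 ± 13.2 CPM in mxl-2 and 44.2 ± 12.32 CPM in N2 (SD, n = 3 each). Of 224 nuclear hormone receptor genes 5 were higher and 2 lower (2.23% and 0.893%, against 1.37% and 1.83% of all genes). Among them nhr-49, a regulator of fat use, had 135 ± 19.01 CPM in mxl-2 and 117 ± 9.07 CPM in N2. None of the flp and nlp neuropeptide genes reached that level, with flp-14 at 27.2 ± 10.9 CPM in mxl-2 and 30.5 ± 3.25 CPM in N2. Of 401 F-box and MATH genes, substrate adaptors of ubiquitin ligases, 311 lay above 0, against 53.4% of all genes. At that level 14 (3.49%) were higher, against 1.37% of all genes, and 3 (0.748%) were lower, against 1.83%. Without N2 replicate 3, 90 were higher, where 1557 of all genes were at that level in either direction. fbxa-163 had 24.6, 14.5 and 9.26 CPM in mxl-2, against 0.308, 0.617 and 16.19 CPM in N2, and N2 replicate 3 lay at the level of mxl-2. drd-10 was lower without overlap, at 1.72, 2.48 and 3.03 CPM in mxl-2, against 11.1, 14.5 and 7.50 CPM in N2 (adjusted p 0.609); drd-50 had 24.6 ± 11.8 CPM in mxl-2 and 15.1 ± 10.7 CPM in N2 and dod-24 73.3 ± 53.05 CPM in mxl-2 and 42.1 ± 12.2 CPM in N2 (SD, n = 3 each).

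The same strains were compared on EV and on daf-16 RNAi in other libraries. On EV 5 genes were called (0.0288%) and 2296 (13.2%) had an unadjusted p under 0.05, and on daf-16 RNAi 1084 (6.25%) were called and 3871 (22.3%) had one. Leaving out 1 library moved these calls to between 3 and 8 on EV, the highest without mxl-2 replicate 1, and to between 129 and 2686 on daf-16 RNAi, the lowest without mxl-2 replicate 1 and the highest without mxl-2 replicate 2. Log2 fold changes across genes, which are not independent replicates, correlated with those on pha-4 RNAi at a Pearson's r of 0.082 for EV and 0.128 for daf-16 RNAi, whereas r between EV and daf-16 RNAi was 0.541. Of the 554 genes, 323 had the same sign on EV, 78 of them at an unadjusted p under 0.05, and 371 had the same sign on daf-16 RNAi, 133 of them at that level. Genes at an unadjusted p under 0.05 in the same direction on all 3 foods numbered 44 (0.254%), 20 of them higher (0.115%) and 24 lower (0.138%).

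Those 44 included both called genes. On EV the log2 fold change of mxl-2 was -3.64 ± 0.39 and on daf-16 RNAi -4.07 ± 0.39 (SE); for F23F12.12 the values were -4.95 ± 0.57 and -4.47 ± 0.56. They also included C05B5.11, ugt-9, col-74, col-165, clec-197 and clec-219 on the lower side and ugt-29, ugt-31, pgp-5, pgp-6, cyp-14A5, fbxa-192 and T16G1.5 on the higher side. On pha-4 RNAi some of the lower genes rested on N2 replicate 3. Without it the unadjusted edgeR p was 0.618 for clec-197, 0.300 for clec-219, 0.888 for clec-92 and 0.967 for M176.10. It stayed under 0.05 for C05B5.11, ugt-9, col-74 and col-165. T16G1.5 had 22.6, 3.49 and 21.1 CPM in mxl-2, against 2.12, 1.60 and 2.77 CPM in N2 on pha-4 RNAi, without overlap, and 1.75, 1.89 and 12.03 CPM in mxl-2, against 1.09, 0.902 and 1.24 CPM in N2 on EV, where mxl-2 replicate 3 alone was high. The same EV library was the high one for pgp-5 (6.17, 5.83 and 40.3 CPM in mxl-2 and 4.15, 3.84 and 3.93 CPM in N2) and for cyp-14A5 (6.78, 6.48 and 62.2 CPM in mxl-2 and 8.59, 6.12 and 7.41 CPM in N2). It was also the high one for pgp-6, at 1.49, 1.61 and 19.1 CPM in mxl-2 on EV. For ugt-29 (11.3, 10.6 and 55.7 CPM) and ugt-31 (14.8, 11.4 and 48.1 CPM) it was by far the highest mxl-2 library on EV. All mxl-2 libraries on EV lay above those of N2 for ugt-29 and ugt-31.

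**Figure D5:**
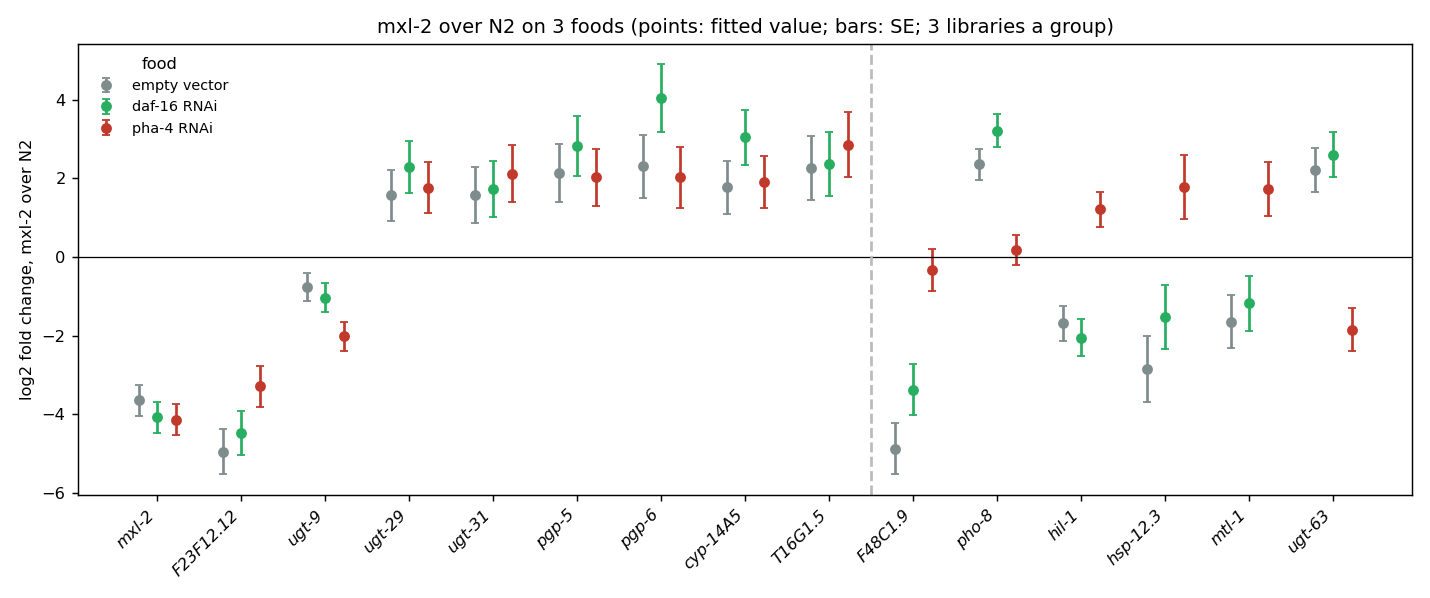
Log2 fold change of mxl-2 over N2 with its SE on EV (grey), daf-16 RNAi (green) and pha-4 RNAi (red) for 15 genes; each value rests on 3 libraries a strain. Left of the dashed line the sign is shared by the 3 foods, and right of it the value on pha-4 RNAi is near 0 or of the other sign.

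Whether the effect of mxl-2 differed between pha-4 RNAi and EV was tested directly. No gene passed at an edgeR adjusted p under 0.05 (0% of those tested), while 1205 (6.94%) had an unadjusted p under 0.05, DESeq2 called 63, and the fit with the sperm covariate called 159. The smallest p belonged to F48C1.9, whose effect differed by 4.54 ± 0.82 (SE) on the log2 scale at an adjusted p of 0.141. On pha-4 RNAi F48C1.9 had 22.9, 36.1 and 9.17 CPM in mxl-2, against 22.6, 25.9 and 37.1 CPM in N2, with overlap. On EV it had 0.613, 0.583 and 0.131 CPM in mxl-2, against 20.4, 7.61 and 11.4 CPM in N2, and on daf-16 RNAi 0.197, 0.405 and 0.0803 CPM in mxl-2, against 0.925, 2.53 and 3.75 CPM in N2, with no overlap on either food. Whether the effect differed between pha-4 RNAi and daf-16 RNAi was not tested.

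Other genes that separated the strains on EV and not on pha-4 RNAi were named after their values were seen. pho-8, of the acid phosphatase family, had 7.34, 7.78 and 14.4 CPM in mxl-2, against 10.2, 8.49 and 7.47 CPM in N2 on pha-4 RNAi and 4.68, 3.84 and 5.93 CPM in mxl-2, against 1.19, 0.823 and 0.793 CPM in N2 on EV. clec-71 had 0.562, 1.28 and 0.801 CPM in mxl-2, against 0.578, 0.472 and 0.819 CPM in N2 on pha-4 RNAi and 0.613, 0.857 and 0.610 CPM in mxl-2, against 0.0332, 0.0392 and 0.103 CPM in N2 on EV. The differences of effect were -2.18 ± 0.54 for pho-8 (adjusted p 0.251) and -2.97 ± 0.77 for clec-71 (adjusted p 0.264). Signs were opposite for hil-1, with 22.5, 28.998 and 15.5 CPM in mxl-2, against 90.2, 62.0 and 64.1 CPM in N2 on EV, and for hsp-12.3, with 16.4, 21.7 and 12.9 CPM in mxl-2, against 192, 68.0 and 109 CPM in N2 on EV; the differences of effect were 2.91 ± 0.63 (adjusted p 0.185) and 4.64 ± 1.16 (adjusted p 0.251). ugt-63 was lower in mxl-2 on pha-4 RNAi and higher on EV, at 13.001, 10.5 and 8.46 CPM in mxl-2, against 2.29, 2.35 and 2.24 CPM in N2, a difference of -4.06 ± 0.78 (adjusted p 0.141). pho-1 and ugt-22 also had opposite signs on the 2 foods, and ugt-22 had 27.001 ± 13.6 CPM in mxl-2 and 60.7 ± 32.3 CPM in N2 on pha-4 RNAi and 57.4 ± 27.7 CPM in mxl-2 and 16.17 ± 5.07 CPM in N2 on EV (SD, n = 3 each).

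The 554 genes at an unadjusted p under 0.05 were spread over the 6 nuclear chromosomes. On chromosome V they were 175 of 3627 genes tested (4.82%), of which 94 were higher and 81 lower. On chromosome III, which holds mxl-2 and F23F12.12, they were 66 of 2535 (2.60%), 23 higher and 43 lower. On the remaining nuclear chromosomes they were 2.06% to 3.40% of the genes tested, and of the 12 mitochondrial genes none was at that level.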

How the data were processed

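Polyadenylated RNA of whole animals was sequenced as single reads of 100 bp from a stranded kit, per the labels. The authors deposited whole-number read counts for each gene, and TPM values (transcripts scaled to their length and the library) in a parallel table; no listed gene had a highest count under 10. Per the submitters' processing notes the tools included STAR 2.4.2a, RSEM 1.2.23 and featureCounts 1.4.6-p5 with build WBcel235; which tool made which table, and the use of strand, are not given in the sources used here. Coordinates are those of the Ensembl annotation of that build.

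The deposited counts of all 33 libraries, in 12 groups of strain and food, were fitted together with edgeR 4.0.16 (R 4.3.3) by its quasi-likelihood test, with TMM factors and the filterByExpr filter, which left out 0.00501% of the counts. Benjamini-Hochberg adjustment ran over the 17354 genes, and a gene was called under 0.05. An SE is the absolute log2 fold change divided by the square root of that test's F statistic, with a spread estimated from all 33 libraries. It is therefore not the spread of the 6 libraries compared. An SD is over the separate populations of 1 group. Without molecular identifiers reads are not independent molecules. Log2 CPM used a prior count of 2. Alternatives were DESeq2 1.42.0, limma 3.58.1 on log2(TPM + 0.5) or log2(TPM + 0.1), other scaling, filters and sample sets, a replicate block, the mean log2 CPM of the sperm genes as a covariate, and each library left out.

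The genes named are mxl-2, pha-4, daf-16, eat-2, the Myc-family network, all called genes, the gene of smallest p in the difference of effects, and defining members of each list by value; others are marked in the text as chosen after their values were seen, as are all further genes given with a log2 fold change or an unadjusted p. The comparison and the 57 lists were chosen with earlier results of these data known. Replicate pairs within a strain differed by 44.2 to 240 times the sampling noise (chi-square per degree of freedom), so none was counted as 1 sample.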

Additional observations from a re-analysis of the deposited data

How the results depend on the processing

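The 2 calls on pha-4 RNAi were kept as a count with RLE size factors, no filter on low counts and a replicate block over all libraries, and limma on log2(TPM + 0.1) called 3. Limma on log2(TPM + 0.5), with or without a mean of at least 1 TPM, called 4, DESeq2 called 19, the sperm covariate gave 22, the fits of only the groups compared or of the 18 libraries of N2 and mxl-2 gave 1 each, and a replicate block in only the groups compared gave 0. Leaving out 1 library gave 1 to 10 calls. On EV, where 5 genes were called, DESeq2 called 175, only the groups compared 3, the 18 libraries 199, the sperm covariate 30 and the block in only the groups compared 1, with 3 to 8 when 1 library was left out. On daf-16 RNAi, where 1084 were called, DESeq2 called 2020, limma with a mean of at least 1 TPM 688, only the groups compared 349, the sperm covariate 2578 and the block in only the groups compared 0, with 129 to 2686 when 1 library was left out. For the difference between pha-4 RNAi and EV, where 0 were called, DESeq2 called 63, limma on log2(TPM + 0.5) 3, only the groups compared 1 and the sperm covariate 159, with 0 to 4 when 1 library was left out. The cause of these differences was not tested.

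Same-numbered libraries did not deviate together: the correlations of their deviations from the group means were -0.323, -0.596 and -0.722 for numbers 1, 2 and 3, so the replicate numbers were not used as pairs.

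Of the 55 named genes given with a test, the sign turned for 6, none of them called, and of the 43 chosen after their values were seen 18 passed in 1 or more alternatives. Of the 61 given by their levels alone, 24 crossed 0 when 1 library was left out. For mml-1 the log2 fold change was -0.0183 with RLE, -0.0184 with DESeq2, -0.0249 in the 18 libraries, -0.0055 in only the groups compared, -0.0041 with the block there, and -0.127 to 0.11 when 1 library was left out. For eat-2 it was -0.0053 with that block, and -0.342 to 0.267 when 1 library was left out. Over those left-out libraries the range was -0.0769 to 0.422 for sbp-1, -0.794 to 0.0479 for F48C1.9, -0.204 to 0.35 for pho-8 and -3.97 to 0.166 for fipr-17. The lowest library total was 25.4 M counts, and genes of a few counts, such as C05B5.11, nas-17 and C16C8.7, are those that depth limits.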
